A study of Mus musculus with 8 samples.

Results

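N6-methyladenosine (m6A) peaks found in pachytene spermatocytes of both genotypes and in round spermatids of neither were described here. A peak of the wild-type pachytene list was taken when its exon blocks shared at least 1 bp with a peak of the Alkbh5-/- pachytene list, on the same chromosome and strand, and shared none with a peak of either round spermatid list. This left 431 of the 7502 peaks of the wild-type pachytene list, out of 35697 peaks in the 4 lists together. The peaks were thus chosen by the authors' peak calls in all 4 lists, so their presence and absence is a description with no test. They are called pachytene-only peaks below, a name that refers to the lists and not to the methylation of the RNA itself.

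Spermatogenic cells came from the testes of C57BL/6 mice that were 12 weeks old, either wild type (WT) or Alkbh5-/- (KO), in fractions labelled PA and RO, which the title of the series gives as pachytene spermatocytes and round spermatids. Each genotype and fraction had 1 input and 1 immunoprecipitated library, 8 samples in all, so there were no replicates and no test over samples was possible. The labels do not give how the fractions were separated or how many animals each sample came from. Intervals below are 95% intervals for counting error only and leave out the spread between animals.

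m6A is set on messenger RNA by a methyltransferase complex around METTL3 and METTL14, mostly within a short motif with GGAC at its core and often near stop codons, and it is removed by the demethylases ALKBH5 and FTO. Reader proteins of the YTH family bind it and act on splicing, export, translation and decay. In MeRIP-seq, fragmented RNA is pulled down with an antibody against m6A, and a peak is a stretch of a transcript with more reads in the pulled-down library than in its input. Pachytene spermatocytes are meiotic cells with paired chromosomes undergoing recombination, in which the X and Y chromosomes are silenced; round spermatids are their haploid products.

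The input counts separated the fractions only in part. Of 12 pachytene markers, 4 had a symbol (Hspa2, Mybl1, Sycp1 and Sycp2), and none of them differed 2-fold between the fractions of either genotype. Their summed counts per 1000000 counts (CPM) were 2555 and 1418 in the PA libraries of WT and KO, and 2298 and 1634 in their RO libraries. The 5 of 12 round spermatid markers with a symbol (Acrv1, Prm2, Tnp2, Tssk1 and Tssk2) summed to 165, 332, 294 and 603 CPM in the same order. Acrv1 and Tssk1 were at least 2-fold higher in RO in WT, and Tnp2 and Tssk2 were in KO. No round spermatid marker thus passed 2-fold in both genotypes. Of all genes with at least 1 CPM in either library, 21.6% in WT and 17.5% in KO were at least 2-fold higher in RO. Neither list had a marker at 0 counts in any library. Markers of other testis cells were also present: in the same order, 4 of 7 Sertoli markers summed to 239, 318, 172 and 198 CPM, 4 of 5 muscle and endothelial markers to 403, 432, 227 and 396 CPM, 2 of 5 Leydig markers to 136, 40.0, 41.5 and 16.7 CPM, 3 of 8 spermatogonial markers to 30.5, 60.4, 23.5 and 42.4 CPM, and 1 of 3 macrophage markers to 2.13, 12.3, 6.86 and 21.5 CPM. No gene of these marker lists carried a pachytene-only peak. Few had any WT PA peak: 1 pachytene, 2 round spermatid, 2 Sertoli, 3 muscle and endothelial, 2 Leydig, 2 spermatogonial and 1 macrophage marker. Over all genes with a WT PA peak, 8.51% carried a pachytene-only one, so this absence is not read as a result. In bulk samples, fewer cells of a type and less RNA per cell cannot be told apart.

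Sequences could be read only where a peak lies within 250 bases before to 50 bases after an annotated start site, which left 8 pachytene-only peaks with at least 30 bases. On their own strand 7 of the 8 held GGAC and 3 of the 8 held GGACT, and the 110 bases read from the peak of Slc7a8 held neither. In stretches of the same lengths from all start-site windows, 12.1% (31 bases) to 43.1% (150 bases) held GGAC. For GGACT the range was 3.49% to 14.6%. The lengths differ, so the 8 have no single background share, and their counts were not tested. The stretches below, from 4 of the peaks, were chosen to be shown because they hold the letters at the core of the m6A motif. They are RefSeq sequence of GRCm38.p6, the same assembly as mm10, written 5′ to 3′ on the strand of the peak, with GGACT, or GGAC where no T follows, in capitals.
Mif4gd, chr11:115612474-115612503, minus strand: ggggtGGACGGACTggaaacgctgggagag
Gm21269, chr7:73825867-73825887, plus strand: agcatcacgaagGGACTacag
Pcsk7, chr9:45906521-45906550, plus strand: ggcggcaggcgcGGACagcgaccGGACaac
Ccsap, chr8:123859095-123859123, minus strand: cgcggaggagcaGGACacagtgttaccag
Both strands of the peaks were searched for GGACT and for GGAC, which is contained in it. As a background, the last bases of every start-site window of the table were searched for GGACT on the gene's strand over a stretch of the same length. The 150 bp peak of Gm21269 held GGACT once, as 14.6% of stretches of that length did, and the 50 bases read from the peak of Mif4gd held it once against 5.76%. The 122 bases read from the peak of Pcsk7, which encodes a proprotein convertase, held GGAC 4 times without GGACT, against 37.1% of stretches with at least 1 GGAC, and the 31 bases of Ccsap held GGAC once, against 12.1%. The peak of Pcsk7 overlaps the pachytene-only peak of Rnf214 on the minus strand, with folds of 5.16 and 5.93. On that minus strand the 122 bases held GGAC 0 times. The 149 bases of 5330439K02Rik held GGAC 3 times on each strand. A match is a description of letters, and these windows near start sites do not stand for the pachytene-only peaks as a whole.

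Pachytene-only peaks were a small share of the WT PA list, 5.75% (5.24 to 6.29), and 7.21% of the 5980 WT PA peaks with a KO PA overlap. Most of the list, 3923 peaks, overlapped a peak in all 4 lists. A further 855 were in the WT PA list alone, and 1247 were shared with both KO lists but not with WT RO. The same rule read from the KO PA list gave 400 of 9931 peaks (4.03%), and the matching rule for the round spermatids gave 299 WT RO peaks, 3.17% of 9418, with a KO RO overlap and no pachytene one. Of the 431 peaks, 26 overlap another one on the same strand, in 13 pairs such as those of Ddi2 and Rsc1a1, so that they mark 418 distinct loci when each strand is counted apart. Some of these loci coincide across strands. The peaks of Mrnip (plus strand) and Sqstm1 (minus strand) span the same bases, chr11:50199725-50199905, with the same fold of 12.6.

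**Figure D1:**
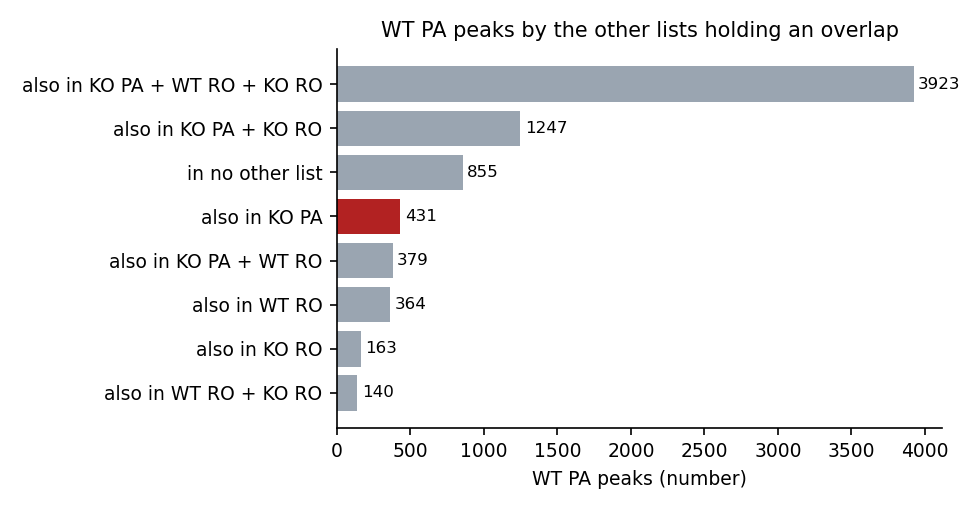
Number of WT PA peaks by which of the KO PA, WT RO and KO RO lists hold an overlapping peak, with the pachytene-only peaks in red. The 431 pachytene-only peaks are fewer than the 3923 in all 4 lists, the 1247 shared with both KO lists and the 855 in the WT PA list alone.

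By the authors' feature classes, 240 pachytene-only peaks (55.7%, 51.0 to 60.3) lay in coding sequence, 75 (17.4%, 14.1 to 21.3) in 3′ UTRs, 15 (3.48%, 2.12 to 5.66) in 5′ UTRs and 101 (23.4%, 19.7 to 27.7) in exons of no coding or UTR class. Of these 101, 42 belonged to protein-coding genes. Against WT PA peaks present in all 4 lists, of which 62.9% were coding and 16.2% of the other exon class, the coding share was lower by 7.20 points (difference −7.20, −12.2 to −2.34) and the share in other exons higher by 7.22 points (3.29 to 11.6). For 3′ UTRs the difference was −1.31 points (−4.83 to 2.73), an interval that includes 0. Against all other WT PA peaks together the coding share differed by −0.786 points (−5.64 to 3.98). The peaks of the WT PA list alone had a coding share of 41.3%, a 3′ UTR share of 25.7% and a share in other exons of 28.4%.

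Splice junctions were crossed by 84 pachytene-only peaks (19.5%, 16.0 to 23.5), meaning that the peak has more than 1 exon block. This share was 6.39 points (2.76 to 10.5) above that of the peaks in all 4 lists (13.1%) and 6.00 points (2.44 to 10.1) above that of all other WT PA peaks (13.5%). In the peaks of the WT PA list alone it was 15.9% (13.6 to 18.5), an interval that overlaps that of the pachytene-only peaks. Examples are the peaks of Smc6, a subunit of the SMC5/6 complex, of Atrx, a chromatin remodeller, and of Clspn, a checkpoint mediator at replication forks. Along the gene span in RefSeq, the median pachytene-only peak lay at 79.3% of the way from the start (389 peaks matched by symbol), and the median peak of all 4 lists at 75.8%.

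Protein-coding genes held 369 of the peaks (85.6%, 82.0 to 88.6), compared with 92.1% of the peaks in all 4 lists, a difference of −6.51 points (−10.2 to −3.38). The others were in 18 processed pseudogene, 18 lincRNA, 8 antisense RNA and 8 processed transcript annotations and in rarer classes. Some of them lie over a pachytene-only peak of a protein-coding gene on the other strand. Examples are the antisense RNAs Gm29542, over the peak of Cbll1, and Gm9725, over the peak of Usp38. The X chromosome, silenced in pachytene cells, held 13 (3.02%, 1.77 to 5.09), compared with 1.30% of the peaks in all 4 lists (difference 1.72 points, 0.407 to 3.81) and 1.91% of all other WT PA peaks (difference 1.11 points, −0.185 to 3.20). The X share was 2.22% (1.43 to 3.44) in the WT PA list alone. It was 4.91% (2.51 to 9.38) in peaks shared with KO RO only and 1.37% (0.588 to 3.17) in those shared with WT RO only. The genes of the 13 pachytene-only peaks on X, all named here, are Rragb, Nexmif, Armcx6, Rab9, Zmat1, Mageb18, Zfp275, Gja6, Hmgn5, Rlim, Atrx, Aff2 and Huwe1.

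**Figure D2:**
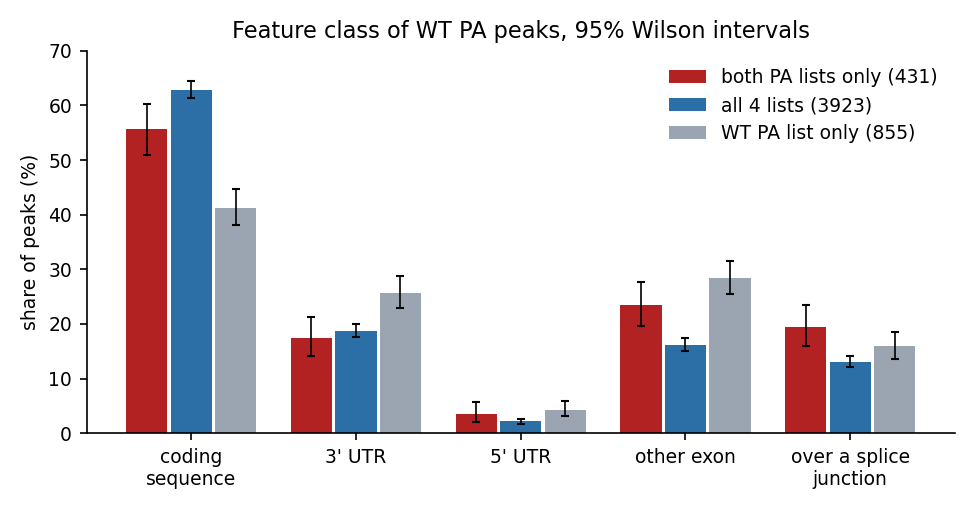
Share of peaks (percent) by feature class and across splice junctions for the 431 pachytene-only peaks (red), the 3923 peaks in all 4 lists (blue) and the 855 peaks of the WT PA list alone (grey), with bars from 0 and 95% Wilson intervals. Pachytene-only peaks have a coding share between those of the other groups and the highest share over splice junctions, 19.5%.

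Pachytene-only peaks were narrow and of modest height. Width and fold enrichment bear on whether a peak meets one in another list and so are tied to the rule, and they are given as a description. The median exonic width was 181 bp (quartiles 151 and 235.5, range 114 to 540), against 300 bp for peaks in all 4 lists and 178 bp for those of the WT PA list alone. The authors' fold of immunoprecipitated over input signal had a median of 8.43 (quartiles 4.625 and 14.3, range 1.18 to 104), against 16.0 and 8.96. All fold values of peaks given here are the authors'. Peaks of 3′ UTRs had a median fold of 10.5, those of coding sequence 8.43. In 35 of the peaks (8.12%) the authors' false discovery rate was 0.05 or more, as it was in 1.35% of the peaks in all 4 lists and in 31.0% of the peaks of the WT PA list alone.

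The counterparts in the KO PA list were broader, in 255 of 431 cases, with a median width of 211 bp and a median fold of 10.9, against 269 bp and 13.0 over the whole KO PA list. Folds of different lists were not compared, since they vary with the depth of the libraries behind them. The counterpart covered at least 50% of the peak in 388 cases (90.0%) and all of it in 213 (49.4%). Its class was the same in 96.1% of cases and its gene in 98.8%. At the edge of the rule, 12 peaks met the KO PA list by 1 bp, among them 1 of the 2 peaks of Insr, the insulin receptor, and the peak of Mdc1, a DNA damage mediator. On the other side, peaks of Adcy9, Ttc33 and Syne1 missed the rule because they met a round spermatid peak by 1 bp.

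**Figure D3:**
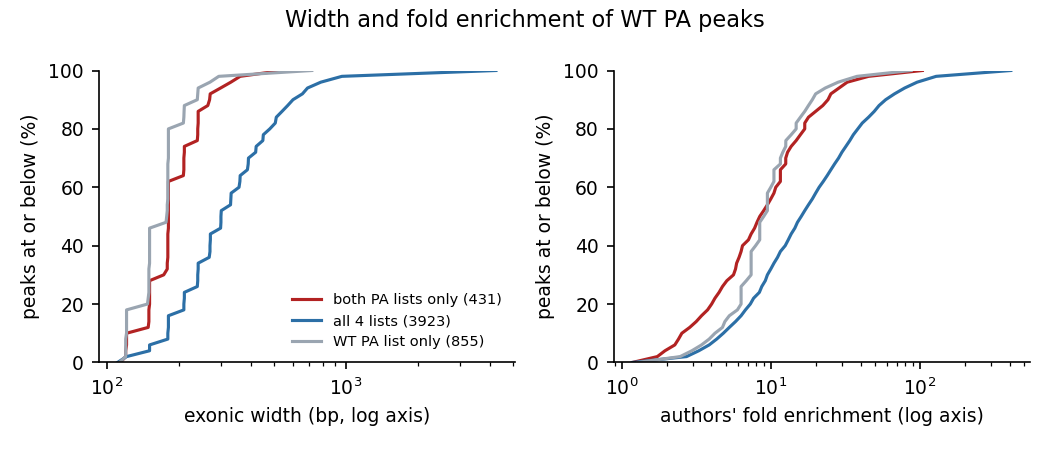
Cumulative share of peaks (percent) against exonic width (bp, log axis) and against the authors' fold enrichment (log axis) for pachytene-only peaks (red), peaks in all 4 lists (blue) and peaks of the WT PA list alone (grey). Pachytene-only peaks have a median width of 181 bp and a median fold of 8.43, below the 300 bp and 16.0 of the peaks in all 4 lists.

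The highest pachytene-only peak was in L1td1, whose protein derives from the LINE-1 retrotransposon ORF1 protein. It covered 271 bp of coding sequence (chr4:98733269-98733539, mm10) with a fold of 104 in WT PA and 10.9 in KO PA. L1td1 had 82 and 9 input counts in the PA libraries of WT and KO, and 71 and 36 in their RO libraries and no round spermatid peak anywhere. Its log2 RO/PA ratio of input was −0.18 (−0.66 to 0.30) in WT, an interval that includes 0, and 1.78 (0.90 to 3.22) in KO, where the PA library was the lowest of the 4.

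The next folds were 50.6 in Zfp618, a zinc finger gene, and 47.4 in Slc5a3, which encodes a sodium-coupled myo-inositol transporter. The peaks of 4933425L06Rik, Camsap3, Ddi2, Rsc1a1 and Zgrf1 shared the fold of 46.4. Camsap3 binds microtubule minus ends and Zgrf1 is a DNA helicase. Ddi2 and Rsc1a1 share the place of their peak, and Rsc1a1 had 0 counts in all 4 input libraries while Ddi2 had 739 and 868 in the PA libraries of WT and KO and 235 and 674 in their RO libraries. Npr1, the receptor for atrial natriuretic peptide, and Tnrc6a, a scaffold of microRNA silencing, followed at 45.3.

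The 431 peaks fell in 401 genes, of which 374 had 1, 24 had 2 and 3 had 3. Genes with 3 were Ripk1, a kinase of cell death signalling, Kcnq1ot1, an imprinted antisense RNA, and the pseudogene Gm18337. Kcnq1ot1 was among the more abundant with 10215 input counts in PA of WT, 9227 in PA of KO, 10468 in RO of WT and 9792 in RO of KO, values that lie close together in all 4 libraries. Ripk1 had 745, 765, 496 and 489 counts in that order. Tnrc6a had 2 pachytene-only peaks with folds of 45.3 and 3.16 in its coding sequence.

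Most of these genes were not free of peaks in round spermatids. A round spermatid peak elsewhere in the gene was listed for 257 of the 401, in both genotypes for 179, in WT RO only for 37 and in KO RO only for 41, and 144 genes had none. Another WT PA peak was present in 195 of the genes and a peak of all 4 lists in 140. For the 279 peaks whose gene had a round spermatid peak, the nearest was a median of 413 bp away on the genome (quartiles 119 and 2616), within 100 bp for 61, over 100 to 500 bp for 89, over 500 to 5000 bp for 71 and farther for 58. It lay on the 3′ side in 153 of 279 (54.8%, 49.0 to 60.6). The closest were a peak of Adam30, of the ADAM metalloprotease family, at 25 bp, and peaks of Ripk1, Slc38a2 and Gpatch4, the last named after its value was seen, at 28 bp.

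**Figure D4:**
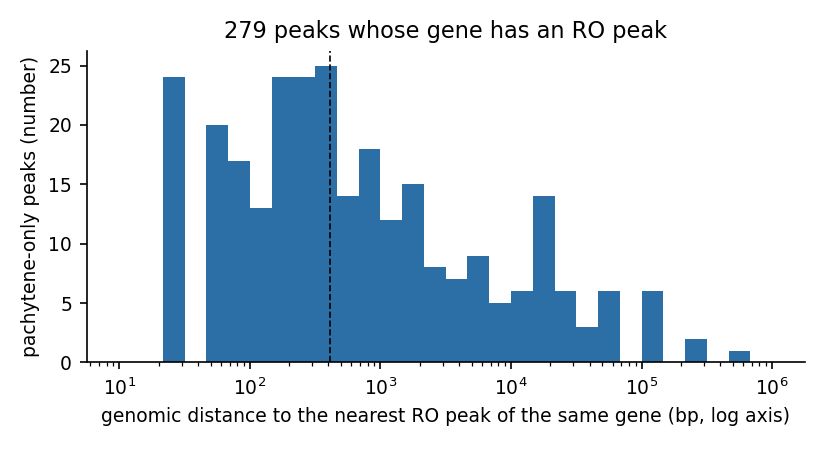
Distance on the genome (bp, log axis) from each of 279 pachytene-only peaks to the nearest round spermatid peak of the same gene, as a number of peaks per bin, with a dashed line at the median of 413 bp. Peaks pile up below 500 bp, where 150 of the 279 lie, and a tail runs past 5000 bp.

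Genes without a round spermatid peak were less abundant. Their median input count was 221.5 and 148 in the PA libraries of WT and KO and 180 and 179.5 in their RO libraries, against 781, 765, 681 and 658 for the genes with one. Genes with a peak in all 4 lists had medians of 725, 646, 694 and 622. The part of these lower counts in the missing round spermatid peaks was not tested. Peaks of the genes without a round spermatid peak had a median fold of 10.5, those of the others 7.91.

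Input RNA of the genes was compared between RO and PA within each genotype. Log2 ratios are of CPM scaled by TMM factors with 2 counts added as a prior, for genes with at least 1 CPM in either library, and a gene is called higher or lower past a 2-fold difference, with no test. In WT, 395 of the 401 genes were kept, and their median ratio was −0.11 (quartiles −0.56 and 0.23), against 0.01 over all genes kept and −0.07 for genes with a WT PA peak but no pachytene-only one. Of the 395, 43 were lower in RO (10.9%) while 18.7% of all genes kept were, and 25 were higher (6.33%) while 21.6% of all genes kept were. Among genes with another kind of WT PA peak the shares were 9.71% lower and 8.96% higher. Among genes with at least 10 CPM the order against the background turned for lower genes: 38 of 349 were lower (10.9%) against 9.64% of all genes and 7.88% of genes with another kind of WT PA peak, and 20 were higher (5.73%) against 11.5% and 7.22%. The share of lower genes thus reads below or slightly above the background with the limit on low counts.

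In KO, 393 genes were kept with a median ratio of −0.02 (quartiles −0.34 and 0.34). It was 0.01 over all genes kept and −0.04 for genes with a WT PA peak but no pachytene-only one. Lower in RO were 27 (6.87%) against 15.2% of all genes kept, and higher were 19 (4.83%) against 17.5%. Among genes with another kind of WT PA peak the shares were 5.44% lower and 5.01% higher. With at least 10 CPM, 19 of 337 were lower (5.64%), the same share as the 5.64% of all genes, and 8 were higher (2.37%) against 5.21%. For genes with another kind of WT PA peak, that limit gave 3.43% lower and 2.43% higher. Against those genes the share of lower genes was thus larger and the share of higher genes nearly equal, with no test. Over all genes the spread of these ratios depended on depth: for genes with 1280 or more counts summed over both libraries the robust SD was 0.45 in WT and 0.34 in KO, and for 80 to 320 counts it was 1.17 and 0.94.

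Genes with a round spermatid peak elsewhere had a median ratio of −0.16 in WT and −0.06 in KO, with 27 lower and 8 higher of 253 in WT and 12 lower and 5 higher of 251 in KO. Genes with none had −0.02 and 0.11, with 16 lower and 17 higher of 142 in WT and 15 lower and 14 higher of 142 in KO. The genes with no round spermatid peak at all thus had the median nearer to 0 in WT and above 0 in KO, and the difference between these groups was not tested. By class, the median ratio in WT was −0.25 for the 73 genes with a 3′ UTR peak, −0.12 for genes with a peak in coding sequence and 0.02 for genes with a peak in other exons, and in KO −0.10, −0.02 and 0.07. The differences between these classes were not tested.

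**Figure D5:**
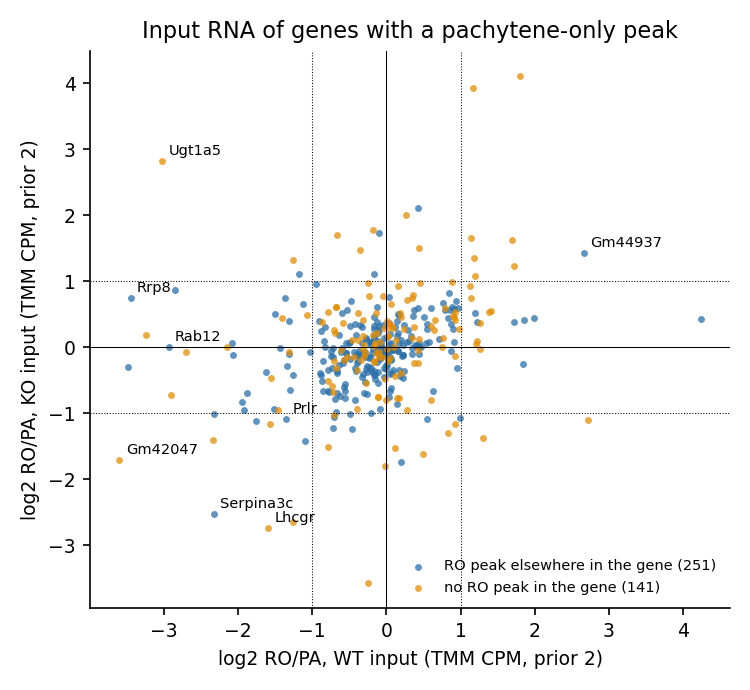
Log2 RO/PA ratio of input CPM in WT (x axis) and KO (y axis) for 392 genes with a pachytene-only peak, in blue where the gene has a round spermatid peak elsewhere and in orange where it has none, with dotted lines at 2-fold. Most genes lie within 2-fold on both axes, 10 lie below the lines in both genotypes and 8 lie above in both.

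In both genotypes 10 of 392 genes (2.55%) were at least 2-fold lower in RO, against 3.62% of all genes kept in both, and 8 (2.04%) were higher, against 5.03%. The 10 are Enpp4, Fam58b, Gm42047, Irs1, Irs2, Lhcgr, Prlr, Serpina3c, Slc7a8 and Tgfb3, named in full because they are few; Enpp4, Fam58b, Irs1, Lhcgr, Prlr, Slc7a8 and Tgfb3 were picked after their values were seen.

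Lhcgr, the receptor for luteinizing hormone known from Leydig cells, had 223 and 57 input counts in the PA libraries of WT and KO, and 71 and 7 in their RO libraries. Its log2 ratio was −1.60 (−2.03 to −1.23) in WT and −2.74 (−4.42 to −1.91) in KO. The WT PA library was the highest by far, and both RO libraries were below the PA library of their genotype. Prlr, the prolactin receptor, had 1383, 923, 531 and 439 counts in the same order, and both of its RO values lie below both PA values. Its ratios were −1.35 and −1.09.

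Serpina3c, a serine protease inhibitor gene, had 396 counts in PA of WT, 221 in PA of KO, 76 in RO of WT and 37 in RO of KO, with ratios of −2.32 and −2.53. Slc7a8, an amino acid transporter, had 1392, 771, 458 and 347 counts in that order and a 5′ UTR peak with a fold of 2.35. Insulin receptor substrates were both present: Irs1 had 471, 409, 91 and 204 counts, and Irs2, which carried 2 pachytene-only peaks, had 853, 1021, 389 and 386. In each of these genes both RO counts lay below both PA counts. They were chosen as at least 2-fold lower in RO in both genotypes, which makes this pattern likely. The share of all genes with PA and RO counts apart in this way is not given, here or for the other genes described so.

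Leydig markers moved with these genes. Cyp11a1, which starts steroid synthesis, had 876 and 226 counts in the PA libraries of WT and KO, and 181 and 105 in their RO libraries, and Hsd3b1, a later enzyme of the same pathway, had 722, 207, 297 and 78. Both were at least 2-fold lower in RO in both genotypes and neither was at 0 in any library. The part of Leydig RNA in the ratios of the 10 genes was not tested.

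The lincRNA Gm42047 had the lowest ratio of the WT comparison among genes with at least 10 CPM, −3.60 (−3.95 to −3.32), and −1.71 in KO. Its counts were 1171 and 334 in the PA libraries of WT and KO and 93 and 102 in their RO libraries, so WT PA stood above the other libraries. Rrp8, a nucleolar methyltransferase, had 132, 65, 10 and 111 counts in that order and ratios of −3.45 in WT and 0.74 in KO. Rab12, a small GTPase of membrane traffic, had 294, 195, 36 and 198 counts and ratios of −2.93 and 0.00. In both genes WT RO was the lowest library, and neither passed 2-fold in KO.

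At the high end of the WT comparison, again among genes with at least 10 CPM, Gm44937 had 35 counts in PA of WT, 162 in PA of KO, 228 in RO of WT and 442 in RO of KO, with ratios of 2.66 and 1.42. Klhl25, an adaptor of a ubiquitin ligase, had 94, 215, 371 and 295 counts and ratios of 1.98 and 0.44. Trim71, a ubiquitin ligase and RNA-binding protein, had 57, 185, 205 and 156 counts and ratios of 1.84 and −0.26. In these latter genes WT PA was the lowest library. Pla2g3, a secreted phospholipase, had 173, 106, 386 and 276 counts, so that both RO values lay above both PA values, with ratios of 1.18 and 1.35.

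Among genes with at least 10 CPM in either KO library, Serpina3c and Irs2 were also among the lowest ratios of the KO comparison, together with Cd151, a tetraspanin, at −1.51, and the processed transcript Gm16278 at −1.74. The highest in KO under the same limit were Nlgn2, a synaptic adhesion gene, at 1.73, Bri3bp at 1.50 and Gm36065 at 1.46. Nlgn2 had 71 and 34 counts in the PA libraries of WT and KO, and 65 and 119 in their RO libraries, and its WT ratio of −0.10 was small.

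The genes were read against lists of gene functions, as counts of genes with a pachytene-only peak among genes with any WT PA peak, which over all genes is 401 of 4710 (8.51%). These counts have no test. In the machinery that acts on m6A the count was 3 of 12: Rbm15b and Cbll1, which are parts of the methyltransferase complex, and Ythdc1, the nuclear reader. Rbm15b had 259 input counts in PA of WT, 266 in PA of KO, 593 in RO of WT and 351 in RO of KO, and a peak of fold 26.4 in its coding sequence. Its ratio was 1.22 in WT and 0.38 in KO, so that WT RO was the highest library. Cbll1 had 337, 646, 605 and 630 counts, with WT PA as the lowest, and Ythdc1 had 2854, 3567, 3533 and 4046. All 3 genes had a round spermatid peak elsewhere.

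Chromatin modifiers and remodellers gave 14 of 106 (13.2%), and all 14 had a round spermatid peak elsewhere. Among them are Kdm6b, Kdm5b, Kdm4d and Jmjd1c of the histone demethylase families, Kmt2d, a histone H3 lysine methyltransferase, Chd2, Chd4, Chd5 and Chd9 of the CHD remodellers, and Arid1b, Arid4b, Atrx and Baz2b. Their median ratio was −0.39 in WT and −0.08 in KO, with 1 lower and 1 higher past 2-fold in WT and none in KO. Kdm6b had the highest fold, 23.2, with 1431 and 1139 counts in the PA libraries of WT and KO, and 1312 and 1436 in their RO libraries, values within a narrow range. Chd5 was the higher one in WT, with 5140, 5560, 11500 and 8058 counts and a ratio of 1.19, and both of its RO values lie above both PA values. Atrx was the lower one, with 4394, 3376, 1738 and 3187 counts and a ratio of −1.31 in WT and −0.10 in KO.

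Genes of meiotic recombination and repair gave 5 of 33: Top3a, a topoisomerase, Brca2, which loads the recombinase onto DNA, Fancm, a helicase that limits crossovers, Clspn and Mdc1. None passed 2-fold in either genotype. Top3a had a peak of fold 27.4 in its coding sequence and 1031 counts in PA of WT, 517 in PA of KO, 942 in RO of WT and 522 in RO of KO, so its values followed the genotype rather than the fraction. Brca2 had 2728, 2588, 2204 and 2888 counts. Synaptonemal complex, axis and cohesin genes gave 1 of 13, Smc6, and the piRNA pathway and germ granule list gave 0 of 8. With 8.51% over all genes, counts from lists this small are not read as results.

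Zinc finger transcription factors gave 16 of 235 (6.81%), with 4 lower and 1 higher past 2-fold in WT and 1 and 1 in KO. Zfp40 was among the lower ones in WT, with 152 and 119 counts in the PA libraries of WT and KO, and 34 and 111 in their RO libraries, and Zfp54 was higher in both genotypes with 56, 23, 123 and 77. Ubiquitin ligases and deubiquitinases gave 11 of 143 (7.69%), with 1 lower and 3 higher in WT and none in KO. The 3 higher are Klhl25, Trim71 and Klhl41, an adaptor known from muscle, whose counts were 206, 316, 538 and 466.

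The remaining lists had few genes. Several lists, from the chromatin modifiers to the solute carriers, were made from the first letters of gene symbols, so they can miss genes or take in others. The list made this way for protein kinases gave 6 of 89, of which Taok3, Mast4 and Clk3 are kinases while Map10, Map7 and Prkcsh are not, and it lacks kinases such as Ripk1 and Insr. Solute carriers gave 6 of 67, with 2 lower in WT, Slc20a2 and Slc7a8, and 1 lower in KO, Slc7a8. Small GTPase regulators gave 4 of 63. RNA helicases, splicing factors and other RNA-binding proteins gave 3 of 61 (Tnrc6a, Rbm15b and Son, none of them a helicase). That list leaves out the helicase gene Helz and RNA-binding genes such as Sfpq and Syncrip, which carried pachytene-only peaks. Its count is therefore not read as a low share. Centrosome, cilium and axoneme genes gave 3 of 55, and cytoskeletal motors 3 of 33, which are the kinesins Kif11 and Kif21a and the myosin Myo6. None of the 18 genes of the spermatid differentiation list with a WT PA peak carried a pachytene-only one. Over all genes the share is 8.51%, so few would be looked for among 18, and the list can miss genes of this function. The absence is therefore not read as a result.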

How the data were processed

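RNA was fragmented and immunoprecipitated with an antibody against m6A, per the labels' protocols. The submitters' processing notes name cutadapt 2.5, HISAT2 2.1.0, HOMER 4.10.4 and mm10, with no role given; the peak caller is not given in the sources used here. The authors deposited whole-number counts per gene for the 4 input libraries (9921365 to 13147239 counts) and 4 peak lists, each assigned by its name alone. Per the file headers a peak has a p-value, its log10 and the log10 false discovery rate (used as a score), and a fold, the ratio of immunoprecipitated over input signal by the authors. Counts of immunoprecipitated libraries were not analysed here.

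Peaks were compared by exon blocks with a minimum overlap of 1 bp. Counts were scaled with TMM (edgeR 4.0.16 in R 4.3.3) with a prior count of 2, keeping genes at 1 CPM or more in either library. No comparison of the fractions has a test, since each group holds 1 library. The step that calls 2-fold genes was run on simulated data and recovered 200 of 200 changed genes in each genotype. The size of the differences set there, the counts of the changed genes and how many unchanged genes were called are not given. The recovery is therefore not read as a result about the 2-fold calls. The accuracy of the 2-fold calls in the real libraries was not tested. Shares have Wilson intervals, differences of shares Newcombe intervals, and ratios of single genes intervals from the exact binomial interval of the counts; peaks of 1 gene are not independent, so intervals over peaks are too narrow. Symbols came from the peak lists, which name 8733 of 53465 genes; Alkbh5 itself was not analysed here, so the genotype labels were not checked on it.

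The members and lists were chosen with earlier results of these data known. Named genes were the 10 highest folds, the 5 genes with the most peaks, the 5 lowest and 5 highest ratios per genotype at 10 CPM or more, up to 4 genes per function list by fold, and the peaks at the edges of the rule; genes outside it were chosen after their values were seen. Alternatives changed the overlap, the peak thresholds, the distance to round spermatid peaks, the names of the KO lists, the scaling (DESeq2 1.42.0 size factors or totals), the filter and the prior.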

Additional observations from a re-analysis of the deposited data

Results flagged for a closer look

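In 5 genes with a pachytene-only peak the RO/PA ratio of input RNA was past 2-fold in opposite directions in the genotypes, of 392 genes kept in both. The share of such genes over all genes is not given, so the count is not read as a result about these genes. Over all genes kept, 18.7% were lower and 21.6% higher in RO in WT, and 15.2% and 17.5% in KO. The difference between the genotypes was not tested, since each value rests on 1 library pair. Ugt1a5, a glucuronosyltransferase gene, had 131 counts in PA of WT, 2 in PA of KO, 14 in RO of WT and 26 in RO of KO, giving a log2 ratio of −3.03 (−4.11 to −2.40) in WT and 2.81 (1.68 to 6.80) in KO. It shares exons with other Ugt1a genes, so its counts are uncertain. Mrnip, a DNA repair gene, had 137, 39, 55 and 101 counts in that order and ratios of −1.26 in WT and 1.31 in KO. Pcdhga1, a protocadherin that shares exons with its cluster, had 296, 64, 127 and 142 counts and ratios of −1.18 and 1.11. The processed pseudogene Gm15920 had 63, 134, 156 and 51 counts and ratios of 1.31 in WT and −1.38 in KO. The processed pseudogene Gm7904 had 10, 17, 76 and 7 counts and ratios of 2.72 and −1.10 (−2.81 to 0.05), so its KO interval includes 0. Reads of pseudogenes can come from their parent genes.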

How the results depend on the processing

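No paired analysis was possible because each group holds 1 sample, and no replicate could be left out. The membership rests on the names of the lists: with the KO PA and KO RO names exchanged, none of the 431 peaks stayed and the rule gave 163 other peaks, 2.17% of the list, in 157 genes, with a coding share of 38.7%, a 3′ UTR share of 27.6%, a median width of 180 bp, and 19 genes lower in RO in WT and 12 in KO. Requiring that the gene has no round spermatid peak left 153 peaks (2.04%) in 145 genes, 152 of them among the 431, with median log2 ratios of −0.023 in WT and 0.11 in KO and 16 and 15 lower genes. A reciprocal overlap of 50% kept 317 (4.23%), and leaving out peaks within 200 bp of a round spermatid peak kept 343 (4.57%). A fold of at least 5 in all lists gave 393 peaks, 286 of them among the 431, with a coding share of 50.9% and a 3′ UTR share of 21.4%. A false discovery rate under 0.05 in all lists gave 428, of which 382 were among the 431. Scaling to library totals alone moved the WT median ratio to −0.019. The other alternatives (strand ignored, whole spans, DESeq2 size factors, at least 10 CPM, no filter, a prior of 0.5) kept the shares and medians listed above within their main counting intervals. For counts the limits were wider. At 10 CPM or more the genes lower in RO went from 43 to 38 in WT and from 27 to 19 in KO. At that limit the share of lower genes in WT also changed sides against all genes, as given above. Of 140 ratios of named genes, 17 moved beyond their counting interval with library totals and none reversed. The cause of these shifts was not tested. Depth limits the genes with few counts: 20 counts or fewer were found for 14 of the 401 in WT PA, 21 in KO PA, and 12 and 16 in the RO libraries of WT and KO.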

Other observations

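The authors' fold values of the 431 peaks recur. There were 185 distinct folds among them, and 308 distinct pairs of fold and false discovery rate. The fold of 11.6 was given to 21 peaks, 12.6 to 19, 6.32 to 15 and 10.5 to 14. All 5 peaks with the fold of 46.4 also had the same false discovery rate, in the genes 4933425L06Rik, Camsap3, Ddi2, Rsc1a1 and Zgrf1, whose input counts in WT PA were 313, 220, 739, 0 and 1290.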
